A study of Mus musculus with 12 samples.

Results

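PPAR-alpha (Ppara) is the nuclear receptor through which the liver senses fatty acids, and the 7 genes described here are the receptor itself and 6 genes that act with it or downstream of it in fat breakdown and ketone body formation. They are Ppara, Creb3l3, Ehhadh, Acot1, Vnn1, Pdk4 and Bdh1, chosen by name out of 19938 genes measured, each from the probe set that the array's annotation pairs with that symbol alone; each of the 7 had 1 such probe set. Livers of 12 mice of the inbred strain C57Bl/6J were profiled with 1 array per mouse. Mice of 10 weeks were injected by vein with a recombinant adenovirus carrying either a scrambled hairpin RNA (sh scramble, 6 mice) or a hairpin RNA against Grb14 (sh Grb14, 6 mice), and livers were taken from fed mice 7 days later. Both groups carried adenovirus, the promoter of the hairpins and the sex of the mice are not given in the labels, and no liver without virus was analysed here. Grb14 encodes an adapter that binds the activated insulin receptor and restrains it, and the question is what a lower level of it does to expression in the liver.

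PPAR-alpha pairs with a retinoid X receptor and binds direct repeats of the half-site AGGTCA near its target genes. In the fasted liver it turns on fatty acid uptake, oxidation in mitochondria and peroxisomes, and the making of ketone bodies that other tissues burn. After a meal, insulin lowers the supply of fatty acids and restrains the same programme.

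The values are log2 levels from the authors' table, in which a difference of 1 is a doubling. Genes with an adjusted p under 0.05 (Benjamini-Hochberg, over all 19938 genes of a limma fit) are said to have passed. A change is always the sh Grb14 mean less the sh scramble mean, and its standard error (SE) is that of the fit. Grb14 itself fell by 1.91 (SE 0.059), to 26.7% of the control level (limma adjusted p = 7.99e-14), with levels of 8.02 to 8.44 in the sh Grb14 livers and 10.08 to 10.25 in the sh scramble livers. The groups differed widely: 65.3% of all genes passed, 25.8% higher and 39.5% lower, and the median change of all genes was −0.10. That median moved to −0.25 when each array was centred on its own median and to 0.14 when each was centred on 9 hepatocyte secreted protein genes, so changes of this size depend on the scaling. Hepatocyte secreted protein genes stood near the top of the scale on all arrays, with a mean level of 13.54 to 13.62 in sh scramble and 13.26 to 13.38 in sh Grb14 livers. These 9 genes were not a stable reference: 6 were lower and 3 did not pass, with changes from −0.98 (Apoa2) to 0.036 (Alb). Their mean change was −0.24, and every change given relative to them stands higher than the main one by that amount.

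Markers of other cells differed between the same groups. All 8 measured markers of monocytes and recruited macrophages were higher, with a mean level of 7.46 to 7.73 in sh scramble and 9.51 to 9.90 in sh Grb14 livers, as were 5 of 6 T cell markers (7.19 to 7.33 and 8.57 to 8.89) and 7 of 7 genes of dividing cells (7.13 to 7.42 and 9.61 to 10.1). Cd4, the other T cell marker, was lower by 0.66 (SE 0.053, limma adjusted p = 1.03e-08), with no overlap between the groups. Of 10 Kupffer cell markers 6 were higher and none lower. The other 4, Clec4f (−0.063), Timd4 (−0.054), Marco (0.13) and Vsig4 (0.22), did not pass. Of 8 stellate cell and fibroblast markers 5 were higher and 2 lower. Periportal and pericentral hepatocyte genes were mostly lower, 5 of 6 and 8 of 10. In such bulk samples, fewer cells of a type and less RNA per cell cannot be told apart, and the part of these shifts in the results below was not tested. Batches are not given in the labels, and any that followed the groups cannot be told apart from them.

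Sequence around the start of transcription, from 250 bases before it to 50 after, was taken from RefSeq on GRCm38.p6 for the genes whose direction was clearest: the receptor, its partner factor Creb3l3, and the induced enzymes Ehhadh and Pdk4. Windows were matched for 6 of the 7 genes, 8 windows in all. The half-site AGGTCA was searched exactly, and the direct repeat (AGGTCA, then any base N, then AGGTCA) with at most 2 mismatches outside N, both on both strands; capitals mark the letters matched, where the repeat contains the half-site. The windows are Creb3l3 at chr10:81092542-81092841 (minus strand), Ppara at chr15:85735526-85735825 (plus strand), Ehhadh at chr16:21787785-21788084 (minus strand) and Pdk4 at chr6:5496229-5496528 (minus strand).
Creb3l3: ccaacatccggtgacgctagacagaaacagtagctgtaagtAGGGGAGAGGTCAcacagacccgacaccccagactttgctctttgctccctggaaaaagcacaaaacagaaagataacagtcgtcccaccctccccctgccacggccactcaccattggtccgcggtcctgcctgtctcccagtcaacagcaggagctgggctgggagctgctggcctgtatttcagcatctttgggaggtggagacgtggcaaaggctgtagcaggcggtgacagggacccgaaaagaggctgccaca
Ppara: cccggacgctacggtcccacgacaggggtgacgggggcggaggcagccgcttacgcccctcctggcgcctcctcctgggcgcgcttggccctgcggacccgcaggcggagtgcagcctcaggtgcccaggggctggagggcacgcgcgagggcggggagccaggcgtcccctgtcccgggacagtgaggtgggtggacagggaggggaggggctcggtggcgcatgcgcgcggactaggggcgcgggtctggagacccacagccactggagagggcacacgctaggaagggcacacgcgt
Ehhadh: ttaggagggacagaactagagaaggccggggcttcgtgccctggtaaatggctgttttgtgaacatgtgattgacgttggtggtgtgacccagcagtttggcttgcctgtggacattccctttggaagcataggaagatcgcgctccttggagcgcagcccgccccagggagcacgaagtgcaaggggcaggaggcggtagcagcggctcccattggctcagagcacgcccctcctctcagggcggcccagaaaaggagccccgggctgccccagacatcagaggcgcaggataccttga
Pdk4: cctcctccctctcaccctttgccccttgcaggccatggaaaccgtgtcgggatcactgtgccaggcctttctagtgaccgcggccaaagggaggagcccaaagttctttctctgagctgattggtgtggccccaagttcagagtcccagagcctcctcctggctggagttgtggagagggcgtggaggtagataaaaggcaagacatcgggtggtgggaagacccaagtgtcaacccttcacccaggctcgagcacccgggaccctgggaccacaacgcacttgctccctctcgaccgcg
The Creb3l3 window held AGGGGAGAGGTCA, with 2 mismatches to the repeat, beginning at base −209 from the start. The other 7 windows of these genes, including a further Creb3l3 window, held neither motif, which says only that these letters are not in these windows. Among all 32851 windows of the same length in the table, 16.3% held the half-site and 3.86% the repeat.

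The 7 genes did not move together. Pdk4 and Ehhadh rose, Ppara and Creb3l3 fell, Bdh1 and Vnn1 rose slightly, and Acot1 did not pass the test. In all, 6 of 7 passed, 4 higher and 2 lower, beside 65.3% of all genes, and their median change was 0.16. For 4 of the 7 (Ppara, Creb3l3, Ehhadh and Pdk4) the groups did not overlap, beside 41.2% of all genes, and 2 of the 7 (Ppara and Pdk4) passed with a change of at least 2-fold, beside 9.03%.

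**Figure D1:**
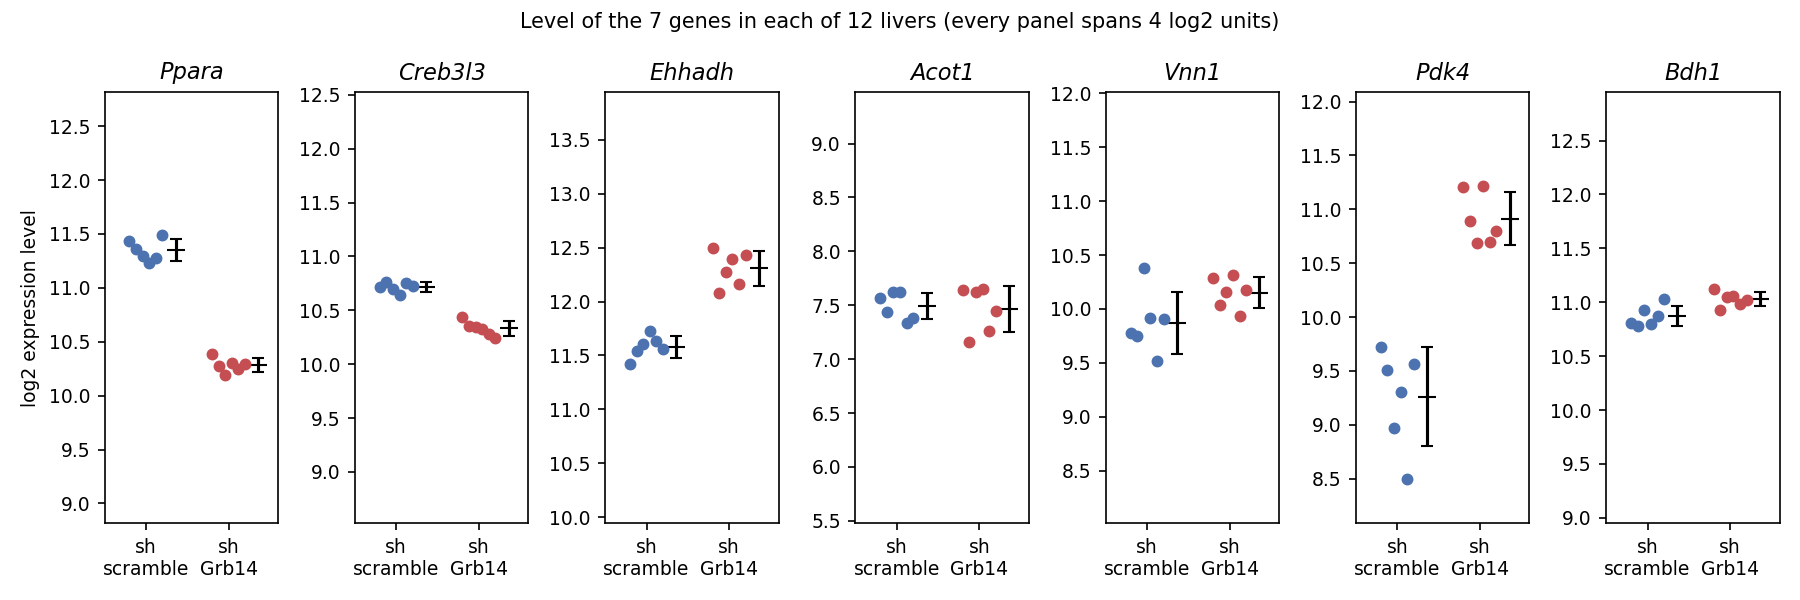
Log2 expression level (vertical axis) of each of the 7 genes in the 6 sh scramble livers (blue) and the 6 sh Grb14 livers (red), with 1 point per mouse and black marks for the group mean with its SD. All red points lie below all blue points for Ppara and Creb3l3 and above them for Ehhadh and Pdk4, while those of Acot1, Vnn1 and Bdh1 overlap.

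Ppara, the receptor, fell in all 6 sh Grb14 livers. Its lowest, median and highest log2 levels were 11.23, 11.33 and 11.49 in sh scramble livers and 10.20, 10.29 and 10.39 in sh Grb14 livers. The groups lay far apart relative to their spread, with SDs of 0.10 and 0.065 (n = 6 each). The change was −1.06 (SE 0.048), down to 47.8% of the control level (limma adjusted p = 6.49e-12; two-sided exact permutation p = 0.00216, the smallest that 12 mice in groups of 6 can give). Only 8.17% of all genes had a larger absolute change.

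Creb3l3 encodes CREB-H, a liver transcription factor held in the membrane of the endoplasmic reticulum until it is cleaved, which acts with PPAR-alpha on fasting genes. Its log2 level had a lowest, median and highest value of 10.64, 10.72 and 10.76 in sh scramble livers and of 10.25, 10.34 and 10.44 in sh Grb14 livers. Every sh Grb14 liver was below every sh scramble liver, although the step was much smaller than that of the receptor. The change was −0.38 (SE 0.039), or 76.6% of the control level (limma adjusted p = 2.04e-07; exact permutation p = 0.00216). Relative to the hepatocyte secreted protein genes on each array it was −0.15 (limma adjusted p = 0.00614).

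Ehhadh, the peroxisomal enzyme that carries out both middle steps of fatty acid beta-oxidation there and a classical PPAR-alpha target, rose in every sh Grb14 liver. Its lowest, median and highest log2 levels were 11.42, 11.58 and 11.73 in sh scramble livers and 12.08, 12.34 and 12.49 in sh Grb14 livers. The gap between the groups, from 11.73 to 12.08, was wider than the SD of either (0.10 and 0.16, n = 6 each). The level rose 1.65-fold (log2 0.73, SE 0.067; limma adjusted p = 5.92e-08; exact permutation p = 0.00216). Ehhadh rose while the gene of its receptor fell in the same 6 livers.

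Pdk4, the kinase that switches off pyruvate dehydrogenase and so spares glucose while fat is burned, had the largest change of the 7. Its lowest, median and highest log2 levels were 8.50, 9.41 and 9.73 in sh scramble livers and 10.69, 10.84 and 11.22 in sh Grb14 livers. It also had the widest spread, with an SD of 0.46 in sh scramble and 0.24 in sh Grb14 livers (n = 6 each), and sh scramble replicates 5 (8.50) and 3 (8.97) were lowest. The level rose 3.14-fold (log2 1.65, SE 0.17; limma adjusted p = 2.27e-07; exact permutation p = 0.00216), and 3.45% of all genes had a larger absolute change.

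Bdh1, the mitochondrial dehydrogenase that turns acetoacetate into beta-hydroxybutyrate in the last step of ketone body formation, was slightly higher. Its lowest, median and highest log2 levels were 10.78, 10.84 and 11.03 in sh scramble livers and 10.93, 11.04 and 11.12 in sh Grb14 livers. The groups overlapped, and 3 of 6 sh Grb14 livers lay above every sh scramble liver. The change was 0.16 (SE 0.047; limma adjusted p = 0.00826; exact permutation p = 0.0130). With each array centred on its median the change was 0.010 (limma adjusted p = 0.833), so this call depends on the scaling.

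Vnn1, a pantetheinase anchored to the cell surface that breaks down a product of coenzyme A and a target of PPAR-alpha, overlapped between the groups. Its lowest, median and highest log2 levels were 9.52, 9.84 and 10.38 in sh scramble livers and 9.94, 10.17 and 10.31 in sh Grb14 livers. The highest value of all belonged to a control, sh scramble replicate 3, and no sh Grb14 liver lay above it. The change of 0.28 (SE 0.11) passed limma's test with adjusted p = 0.0343 and had an exact permutation p of 0.0628. The call was lost in 7 of the 12 fits that each left out 1 mouse (limma adjusted p 0.0542 to 0.0821), namely those without sh scramble 1, 2 or 5 or sh Grb14 1, 3, 4 or 6, and when arrays were centred on their medians (0.13, limma adjusted p = 0.267). Without sh scramble replicate 3 the change was 0.38 (limma adjusted p = 0.000715).

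Acot1, a cytosolic thioesterase that splits long-chain acyl-CoA into fatty acid and coenzyme A, did not pass the test. Its lowest, median and highest log2 levels were 7.33, 7.50 and 7.62 in sh scramble livers and 7.16, 7.54 and 7.65 in sh Grb14 livers. In the sh Grb14 group 3 livers lay above every sh scramble liver and 2 below every one of them. The change was −0.031 with a 95% confidence interval of −0.22 to 0.16 (limma adjusted p = 0.773; exact permutation p = 0.768), and its sign turned, to 0.21 (limma adjusted p = 0.0818), relative to hepatocyte secreted protein genes. Acot1 belongs to a cluster of near-identical genes, so its probe set and those of Acot2 to Acot6 can share signal.

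Each gene was then set against 1 relative on the same array, a comparison chosen after the data were seen, in which centring of the arrays cancels; the SE of a difference here comes from the spread of the 6 livers in each group. All 7 differences passed an exact permutation test adjusted over the 7 comparisons, 6 of them at the smallest adjusted p (0.00253). Each relative was picked with its change known, so these p-values describe the chosen pairs and no more. Other relatives would have given other differences: Pdk3 rose by 2.47, more than Pdk4, and Ppard fell by 0.49, as Ppara fell. With 65.3% of all genes past the test, many other pairs may differ too, and their share was not computed. Pdk4 rose while Pdk2, an isoform of the same kinase, fell by 0.99 (SE 0.077), so that the changes differed by 2.64 (SE 0.24). Ehhadh rose while Hsd17b4, the other peroxisomal bifunctional enzyme, fell by 0.37 (SE 0.041), a difference of 1.09 (SE 0.057). Acot1 lay 2.10 (SE 0.11) below the change of Acot2, its mitochondrial neighbour, which rose 4.21-fold (log2 2.07, SE 0.11). Bdh1 differed from Bdh2, a cytosolic dehydrogenase that fell 5.54-fold (log2 −2.47, SE 0.097), by 2.63 (SE 0.13). Ppara and Pparg, the fat-cell member of the receptor family, moved in opposite directions: Pparg rose by 0.63 (SE 0.12), and the difference was −1.70 (SE 0.15). Creb3l3 differed from Creb3, which rose by 0.34 (SE 0.040), by −0.73 (SE 0.052). Vnn1 and Vnn3 differed by 0.37 (SE 0.12; adjusted exact p = 0.0173), with a change of −0.093 (SE 0.052) in Vnn3 that did not pass.

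**Figure D2:**
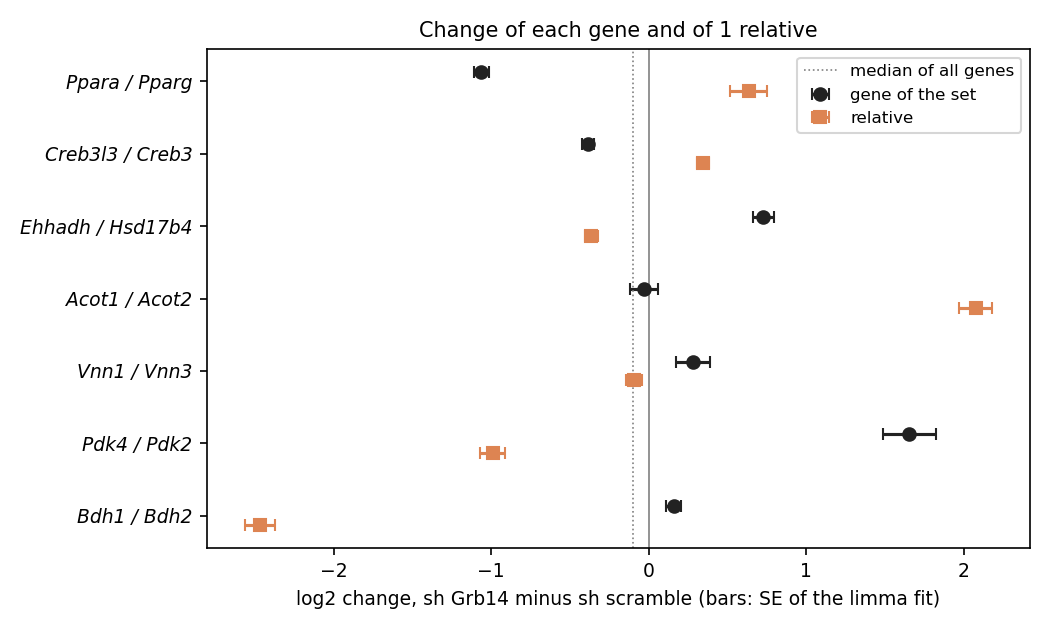
Log2 change (horizontal axis, sh Grb14 minus sh scramble, bars showing the SE of the limma fit) of each of the 7 genes (black circles) and of 1 relative (orange squares), with the median of all genes as a dotted line. Pdk4, Ehhadh and Bdh1 lie to the right of their relatives by 2.64, 1.09 and 2.63, and Ppara, Creb3l3 and Acot1 to the left by 1.70, 0.73 and 2.10.

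Further relatives moved either way. Of the receptor's own family Ppard also fell, by 0.49 (SE 0.077). Among pyruvate dehydrogenase kinases Pdk3, from a sh scramble level of 6.43 near the lower quartile of the arrays (6.20 to 6.42), rose by 2.47 (SE 0.072), and Pdk1 fell by 1.55 (SE 0.068). The phosphatase Pdp1, which reverses the kinases, rose by 1.54 (SE 0.071). In the list of the pyruvate dehydrogenase complex and its regulators other than Pdk4, all 12 measured genes passed, 2 higher and 10 lower, with a median change of −0.46. The list also holds the pyruvate carrier gene Mpc1, which passed narrowly (−0.079, SE 0.030, limma adjusted p = 0.0304). The count past the test was 11 without the intensity trend and 11 with array weights. With arrays centred on hepatocyte secreted protein genes 3 were higher and 7 lower.

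Further genes of the pathway were described in 9 lists, with 130 of 145 listed genes measured; 31 were higher, 78 lower and 21 did not pass, beside 25.8% higher and 39.5% lower among all genes. In the list of partners and coregulators of the receptor 5 of 16 were higher, 8 lower and 3 not past the test, with a median change of −0.12. Centring on array medians made this 3 higher and 11 lower, and centring on hepatocyte secreted protein genes 8 higher and 5 lower. Rxra, the retinoid partner, fell by 0.55 (SE 0.062) and Ppargc1a, a coactivator of fasting genes, by 0.85 (SE 0.14). Lpin1, which amplifies that coactivator, fell by 1.43 (SE 0.21). The receptor, its main partner, Ppargc1a and Lpin1 were all lower in livers where Ehhadh and Pdk4 were higher. Not all coactivators of the list fell. Crebbp rose by 0.19 (SE 0.034) and Ep300 by 0.27 (SE 0.041), both named after their values were seen. The groups did not overlap for either, as for 41.2% of all genes. A rise as small as that of Crebbp depends on the scaling, and centring on array medians left 3 genes of this list higher.

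Peroxisomal genes other than Ehhadh mostly fell, in livers where pericentral and periportal hepatocyte genes were lower too. Of 23 measured enzymes and transporters of peroxisomal fatty acid oxidation and the peroxisomal matrix 18 were lower, 3 higher and 2 without a call, with a median change of −0.44; relative to hepatocyte secreted protein genes 14 were lower and 6 higher. Acaa1b, a thiolase that performs the last step of the cycle in which Ehhadh acts, fell by 1.34 (SE 0.099), and Hacl1, which shortens branched and hydroxylated fatty acids, by 1.25 (SE 0.072). Abcd2, a transporter of very long-chain acyl-CoA into peroxisomes, rose 3.60-fold (log2 1.85, SE 0.17). The peroxins, which build the organelle, had 12 of 13 measured genes lower, none higher and a median change of −0.62; relative to hepatocyte secreted protein genes 10 were lower and 1 higher. Among them Pex5, the import receptor, fell by 0.87 (SE 0.063), Pex6 by 0.81 (SE 0.044) and Pex16 by 0.81 (SE 0.053). Pex11a, a peroxisome division gene induced by PPAR-alpha, fell by 0.22 (SE 0.052), but not with quantile normalization (−0.088, limma adjusted p = 0.136) or relative to hepatocyte secreted protein genes (0.017, limma adjusted p = 0.834).

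**Figure D3:**
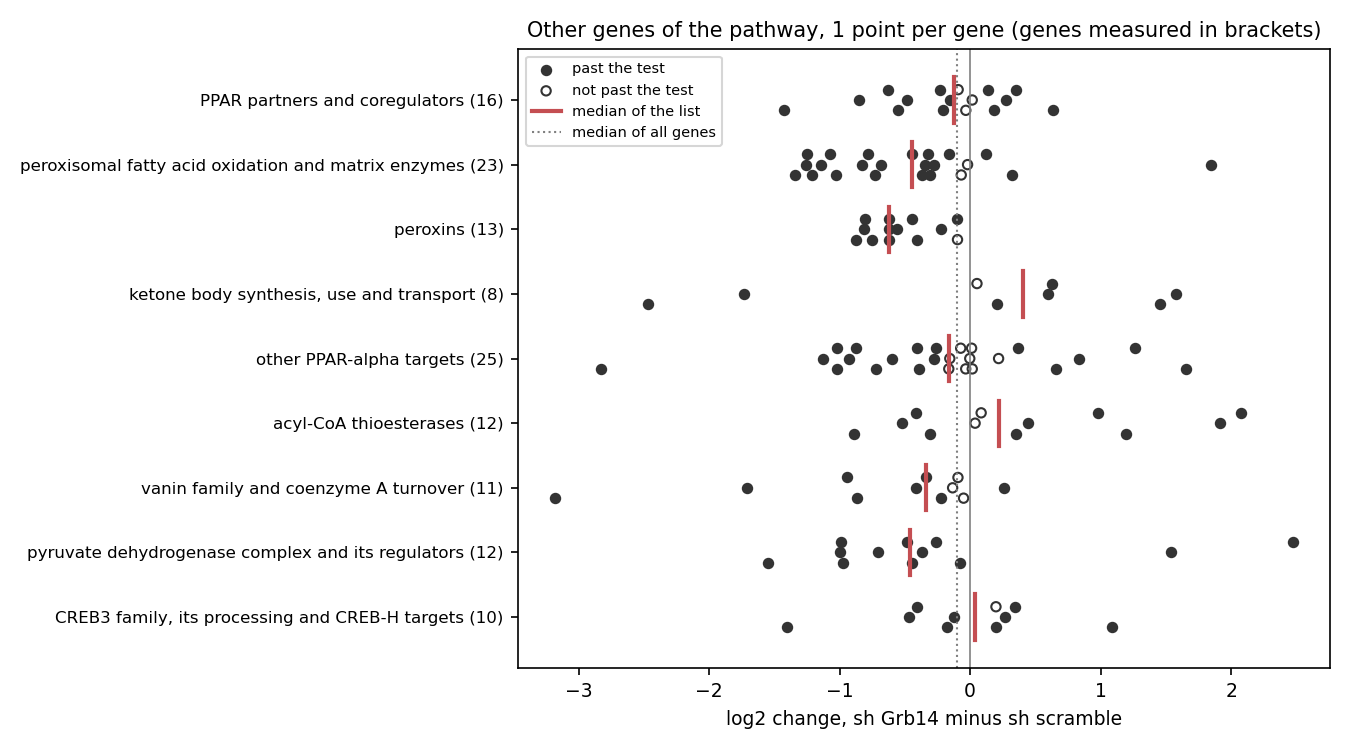
Log2 change (horizontal axis, sh Grb14 minus sh scramble) of the measured genes of 9 pathway lists, with 1 point per gene, filled where it passed limma's test, a red bar at the median of each list and a dotted line at the median of all genes. All 13 peroxins lie to the left of 0, with a median of −0.62, while the ketone body and thioesterase lists spread to both sides.

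Genes of ketone body synthesis, use and transport around Bdh1 moved both ways. Of 8 measured, 5 were higher, 2 lower and 1 not past the test, with a median change of 0.40. The 5 higher were all genes of ketone body use or transport. Acat1, a gene of synthesis named after its value was seen, was the 1 that did not pass (0.052, SE 0.049, limma adjusted p = 0.354). This depended on the scaling: all 8 genes, Acat1 included, passed with quantile normalization and relative to hepatocyte secreted protein genes, 6 higher and 2 lower. With arrays centred on their medians 4 were higher and 2 lower. Slc16a6, a transporter that releases ketone bodies from the liver, rose 2.98-fold (log2 1.58, SE 0.094). Aacs, which activates acetoacetate for lipid synthesis, fell by 1.73 (SE 0.20), and Bdh2 fell as above. Among the thioesterases beside Acot1, 6 of 12 were higher and 4 lower, with a median change of 0.22; relative to hepatocyte secreted protein genes 8 were higher and 3 lower. Acot9 and Acot10, mitochondrial members, rose by 1.92 (SE 0.071) and 1.20 (SE 0.079). In the list of coenzyme A turnover beside Vnn1, 7 of 11 genes were lower and 1 higher (5 and 3 relative to hepatocyte secreted protein genes), with a median change of −0.34. Nudt7, a peroxisomal hydrolase of coenzyme A, fell 9.06-fold (log2 −3.18, SE 0.090), Pank1, which starts coenzyme A synthesis, by 1.71 (SE 0.042) and Pank3 by 0.94 (SE 0.063).

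Other known PPAR-alpha targets moved both ways. Of 25 measured, 5 were higher, 12 lower and 8 not past the test, with a median change of −0.16; relative to hepatocyte secreted protein genes 11 were higher and 9 lower. Cyp4a14, a fatty acid hydroxylase, rose 2.40-fold (log2 1.26, SE 0.23). Its close relatives in the list, named after their values were seen, did not follow it: Cyp4a10 fell by 0.60 (SE 0.073), with no overlap between the groups, and Cyp4a31, at −0.16 (SE 0.11), missed the threshold (limma adjusted p = 0.181). Cidec, a lipid droplet protein, rose 3.15-fold (log2 1.65, SE 0.17). Fabp1, the liver fatty acid binding protein, fell by 0.93 (SE 0.069), and Cyp8b1, a sterol hydroxylase of bile acid synthesis, fell 7.10-fold (log2 −2.83, SE 0.18). Cpt1a, which admits fatty acids to mitochondria, had a change of −0.073 (SE 0.040; limma adjusted p = 0.123) that depended on the scaling: it was −0.22 with arrays centred on their medians (limma adjusted p = 0.000299), 0.13 with quantile normalization (0.0195) and 0.17 relative to hepatocyte secreted protein genes (0.00605). Fgf21, a hormone controlled by PPAR-alpha and CREB-H together, had a change of −0.0029 (95% confidence interval −0.13 to 0.13; limma adjusted p = 0.969) at log2 levels of 6.57 and 6.56, low on these arrays. It passed at −0.15 with arrays centred on their medians (limma adjusted p = 0.0293) and at 0.24 relative to hepatocyte secreted protein genes (limma adjusted p = 0.00875).

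In the list of the CREB3 family, its processing proteases and targets of CREB-H, 4 of 10 measured genes were higher, 5 lower and 1 not past the test, with a median change of 0.036. The split was 2 and 5 with arrays centred on their medians, 4 and 3 with quantile normalization, and 5 and 2 relative to hepatocyte secreted protein genes. Crp, an acute phase protein regulated by CREB-H, fell by 1.40 (SE 0.087), Hamp, the iron hormone hepcidin, by 0.47 (SE 0.063), and Creb3l1 rose by 1.09 (SE 0.076). The genes named from these lists, other than Cpt1a, Fgf21, Cyp4a31, Vnn3, Acat1 and Mpc1, passed limma's test over all genes with adjusted p of at most 0.00155.

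Mice of the same treatment also differed in these genes. In the sh Grb14 group, replicate 1 was above its group mean for all 7 genes and replicate 5 below it for all 7, with replicate 2 lowest for Ehhadh (−0.22), Acot1 (−0.31) and Bdh1 (−0.097). Whole arrays also differed. Over all genes, replicate 1 had the highest median (7.74) and upper quartile (9.33) of the sh Grb14 arrays and replicate 5 the lowest upper quartile (9.18). Array weights from limma were lowest for replicates 4 (0.51) and 5 (0.54), where a weight below 1 marks an array that varies more. Yet replicate 4, with an upper quartile of 9.20, was highest of its group for Acot1 (0.19), Vnn1 (0.16) and Pdk4 (0.30). Replicate 2 had a weight of 1.11. The part of this in the order of the mice was not tested. In the sh scramble group no such order ran through the genes: replicate 5 was lowest for Acot1 (−0.16), Vnn1 (−0.36) and Pdk4 (−0.76) but above the mean for Creb3l3 and Ehhadh. For each of the 21 pairs of genes the correlation was computed within each group of 6 mice, 42 relations in all. None passed after adjustment, while 6 had an unadjusted exact permutation p under 0.05 for Pearson's r; the lowest adjusted p was 0.175 for r and 0.306 for Spearman's rho. The closest pair was Acot1 and Bdh1 in sh Grb14 livers, with r = 0.925 (exact permutation p = 0.00417, adjusted p = 0.175) and rho = 0.943 (exact p = 0.0167, adjusted p = 0.306), and r was 0.676 without the 2 mice farthest from the median of Acot1. In sh scramble livers the same pair had r = −0.323 (exact p = 0.529, adjusted p = 0.717) and rho = −0.314 (exact p = 0.564, adjusted p = 0.817), and whether the groups differ in this was not tested.

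**Figure D4:**
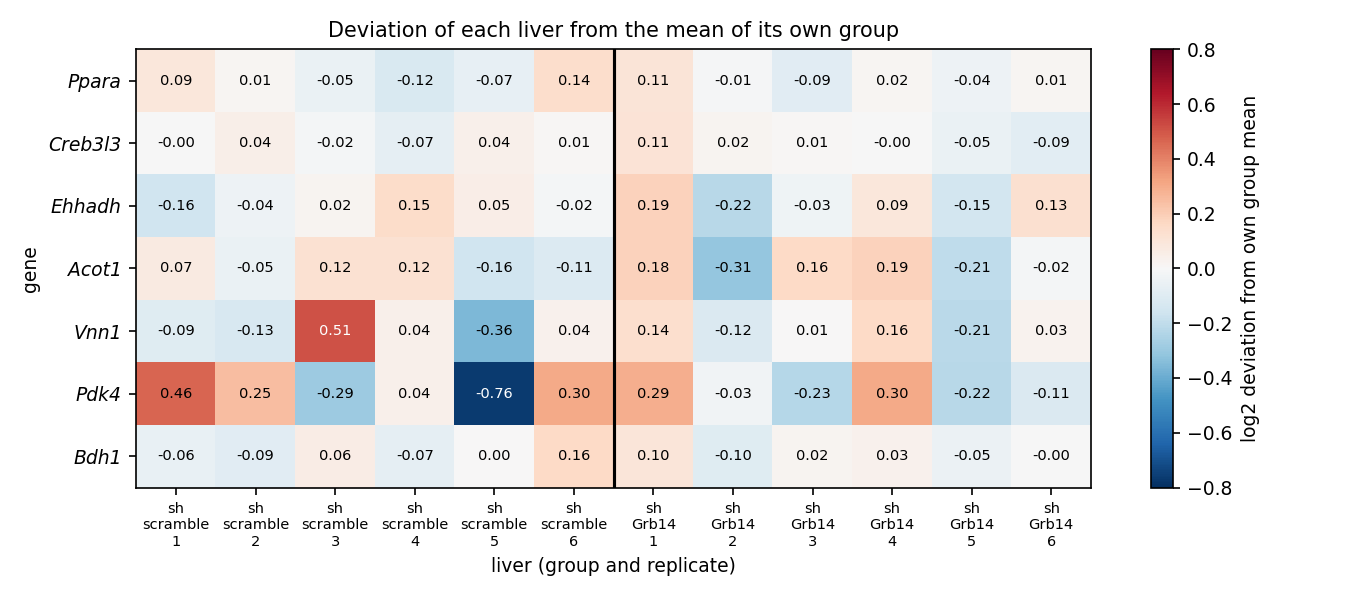
Deviation of each liver's log2 level from the mean of its own group (colour scale and printed values), with the 7 genes in rows and the 12 livers in columns, sh scramble left of the black line. The first sh Grb14 liver is positive and the fifth negative in all 7 rows, and Pdk4 and Vnn1 show the widest spread among sh scramble livers (−0.76 to 0.46 and −0.36 to 0.51).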

How the data were processed

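Liver RNA (100 ng per mouse, per the labels' protocols) was hybridised to Affymetrix whole-transcript arrays. The deposited table holds the authors' log2 expression values for 35556 probe sets on 12 arrays; per the submitters' processing notes RMA and Partek were used, without further detail, and the genome build of the probes is not given in the sources used here. The values lay between 2.742 and 14.24. Platform annotation paired 21789 probe sets with 1 symbol, 1621 with several and 12146 with none listed; only the first were used, and a gene with several (999 genes) was represented by its brightest one on average. Promoters came from RefSeq (GRCm38.p6).

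All 19938 genes were fitted with limma 3.58.1 in R 4.3.3 (lmFit, eBayes with an intensity trend, all 12 arrays, no covariate, no filter), which was tested on simulated data. Exact permutation tests used all 924 assignments of mice to groups and were two-sided. Precision is limited by 6 arrays per group. The 7 genes, the lists and the rule for named genes were chosen with earlier results of these data known. The rule took the 7 genes, the 3 largest changes past the test in each list, and Rxra, Cpt1a, Fgf21, Cyp4a14, Fabp1 and Pex11a whatever their values; some listed genes were not analysed here. Genes of families with near-identical copies can share signal. Alternatives covered scaling, probe set choice, a filter, the variance model, array weights and leaving out each mouse.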

Additional observations from a re-analysis of the deposited data

Results flagged for a closer look

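A liver stood apart from the other 5 of its group in 4 of 80 groups of values (40 genes in 2 groups), by a gap above Dixon's critical value at 95%; chance gives about 1 in 20. None of the 7 genes was among them. Hacl1 was low in sh scramble replicate 6, at 11.99 beside 12.24 to 12.36 in the others. Slc16a6 was low in sh scramble replicate 4, at 7.55 beside 7.92 to 8.07. Hamp was low in sh scramble replicate 3, at 12.87 beside 13.04 to 13.12. Fgf21 was low in sh Grb14 replicate 3, at 6.45 beside 6.56 to 6.62.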

How the results depend on the processing

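Ppara, Creb3l3, Ehhadh and Pdk4 kept their direction and their call under all 19 alternatives, with changes between −1.21 and −0.83, −0.53 and −0.15, 0.58 and 0.96, and 1.50 and 1.89. Centring arrays on their medians ended the calls of Vnn1 (0.13) and Bdh1 (0.010), which left 4 of the 7 genes past the test, 2 higher and 2 lower; the shift of all genes by this centring is its construction. Centring on hepatocyte secreted protein genes reversed Acot1 to 0.21 and Pex11a to 0.017. Cpt1a turned to 0.13 with quantile normalization and 0.17 with hepatocyte centring, and Fgf21 to 0.044, 0.24 and, with array weights, 0.0042; with median centring both passed as lower, at −0.22 and −0.15. With 1 mouse left out in turn, the change of Vnn1 lay between 0.21 and 0.38, that of Acot1 between −0.068 and 0.031 (positive without sh Grb14 2, at 0.031, or 5, at 0.010), and that of Fgf21 between −0.020 and 0.038 (positive without sh scramble 1, at 0.0081, or 2, at 0.038, or sh Grb14 3, at 0.019). The share of higher genes among all genes past the test was 39.5%, and 23.0% or 78.7% with the median or hepatocyte centring. The total past the test in each list, both directions together, stayed within 1.5 times under all alternatives run, but the counts in one direction did not. With hepatocyte centring the genes called higher went from 5 to 11 among other PPAR-alpha targets, 5 to 8 among partners, 3 to 6 among peroxisomal enzymes, 1 to 3 in coenzyme A turnover and 0 to 1 among peroxins, and those called lower from 8 to 5 among partners and 5 to 2 in the CREB3 list. With quantile normalization peroxisomal enzymes called higher went from 3 to 5 and CREB3 genes called lower from 5 to 3; with median centring genes called higher went from 5 to 3 among partners and 4 to 2 in the CREB3 list and among the 7 genes. No paired analysis was possible because the labels name no pairing of mice between the groups. Arrays without a detection call limit what can be said of dim genes such as Fgf21.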

Other observations

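As a description of what else varied like these genes, each was compared with 19937 others by Pearson's r of the deviations from the group means over 12 arrays, and the closest 2 are named; the highest of so many values is high whatever the gene. Vnn1 was followed most closely by Acot8, a peroxisomal thioesterase, with r = 0.95, and by Cd36, the fatty acid translocase, with r = 0.92. Within sh scramble livers r was 0.98 and 0.96 and within sh Grb14 livers 0.82 and 0.73, and whether the groups differ in this was not tested. Cd36 rose by 2.05 between the groups and Acot8 had a change of 0.084 that did not pass (limma adjusted p = 0.157), beside 0.28 for Vnn1. Bdh1 was closest to Ahnak (0.94) and Tpm1 (0.93), Ppara to Sorbs2 (0.94) and Tnfaip1 (0.91), Creb3l3 to Mesp1 (0.94) and Myl12b (0.93), Ehhadh to Fam210b (0.92) and Bmp2k (0.89), Acot1 to Add3 (0.89) and Vgll3 (0.88), and Pdk4 to Olfr746 (0.95) and Zfp174 (0.94).

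The mean level of 6 adipocyte markers was 7.87 in sh scramble replicate 4 and 6.85 to 7.11 in the other sh scramble livers. Without that liver the changes were −1.09 for Ppara, −0.40 for Creb3l3, 0.75 for Ehhadh, 1.66 for Pdk4, 0.14 for Bdh1, 0.29 for Vnn1 and −0.0059 for Acot1, with the calls as before.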
